A study of Sus scrofa with 16 samples.

Results

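The genes described here encode matrix proteoglycans, fibronectin and proteins that remodel the extracellular matrix. They are BGN, DCN, LUM and FMOD (small leucine-rich proteoglycans), FN1 and SPARC (matrix glycoproteins), MMP2 and MMP9 (matrix metalloproteinases) and TIMP1 and TIMP3 (inhibitors of metalloproteinases). A non-control probe was assigned to a member when its gene name was the member's symbol or when its description gave that symbol in brackets. In this way 31 of the 43603 probes on the array were found for 8 of the 10 members, out of 6798 genes that could be named. LUM had 9 probes, SPARC 7, DCN 5, TIMP1 3, FN1, MMP2 and MMP9 2 each, and BGN 1. FMOD and TIMP3 had no probe by this rule. Each had 1 probe under another name in the files (a LOC number that RefSeq gives to FMOD, and the spelling TIMP-3), and these 2 probes are reported beside the 31 and not counted among them.

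RNA of colonic mucosa and of liver was hybridized to 16 one-colour Agilent porcine arrays, 1 pig per array and 4 arrays in each of 4 groups. All pigs were Duroc × Landrace × Large White barrows, 70 days old at the start and 170 days old at slaughter, so that every group was of castrated males of 1 crossbreed and 1 age. For 100 days, the control pigs received corn starch (CS diet) and the other pigs received raw potato starch (RPS diet), a starch that resists digestion in the small intestine. The purified starch made up 230 g/kg of the growing feed and 280 g/kg of the finishing feed in both diets. Pigs were fasted before slaughter, and the mucosa was scraped from the proximal colon, so a scraping can hold epithelium, lamina propria and some of the muscle beneath. Whether equal replicate numbers in the 2 tissues mean 1 pig is not stated in the labels.

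The extracellular matrix of the gut wall and of the liver is made mostly by fibroblasts, smooth muscle cells and, in the liver, stellate cells. Small leucine-rich proteoglycans bind collagen and control how its fibrils assemble. Fibronectin links collagen and proteoglycans to integrins on cells, and hepatocytes secrete it into plasma. Metalloproteinases cut matrix proteins, and TIMPs block them by binding to the active site.

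Each group was hybridized on a slide of its own and scanned by itself, so that slide and group cannot be told apart. The median signal was 56.3 to 70.8 on the colonic CS arrays and 34.2 to 42.5 on the colonic RPS arrays before normalization, and between 30.6 and 37.9 on the hepatic arrays. In colon, 68.7% to 72.2% of non-control spots were well above background with CS and 64.9% to 68.1% with RPS. Hepatocyte markers separated the tissues, since all 8 genes measured were higher in liver. Of 9 epithelial markers, 8 were higher in colon. A pair of colonic arrays, CS replicate 3 and RPS replicate 2, stood apart from the other 6. The summed signal of the epithelial markers was 229307 and 325543 on them, against 617477 to 777955 on the other colonic arrays, and the B and plasma cell markers summed to 10243 and 8737 against 197 to 2132. These arrays hold 1 pig of each diet, and the main counts are also given without them.

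Values are log2 signals after quantile normalization over the 8 arrays of a tissue, and differences are RPS minus CS with the standard error of limma. A probe passed when its unadjusted p was under 0.05 and its fold change above 1.5, which are the thresholds of the study's methods. The reference probe of a member is the one with the highest mean signal over the 16 arrays. In bulk tissue, fewer cells of a type and less RNA per cell cannot be told apart.

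In the colon, the members were mostly lower with the RPS diet. Of the 31 probes, 7 passed and all 7 were lower, at BGN, DCN, SPARC and MMP9, whereas among all probes of the array 1.32% passed as lower. Of these 7, 4 were of SPARC, and probes of 1 gene read the same pigs and are not separate evidence. At 1 probe per gene, the reference probe, 1 of the 8 members found by the rule passed, and 2 of 10 with the added probes of FMOD and TIMP3. No member probe passed as higher, against 1.62% of all probes. The difference was below 0 at 30 of the 31 probes, against 47.7% of all probes, and its median was -0.42, against 0.01 over all probes. Scaling to the 75th percentile changed the split of all probes from 708 higher and 575 lower to 1358 higher and 610 lower, but left 30 member probes below 0 with a median of -0.38. At the reference probes, all 10 members had a mean below that of the CS group, and the groups did not overlap for BGN, where 1.43% of all probes were lower without overlap. After Benjamini-Hochberg adjustment over the array, 0 of the 31 probes and 0% of all probes had a p under 0.05 in limma. Without adjustment there were 7 in limma (5.42% of all probes) and 4 in the methods' t-test (8% of all probes), which also gave 0 after adjustment. After the normexp correction 3 member probes passed as lower, as did 93 of all probes. Without CS replicate 3 and RPS replicate 2, 7 probes passed as lower, 5 of them the same, and 31 of 31 were below 0, while 2.98% of all probes passed as lower. The count depended on single arrays: it was 1 without CS replicate 4 or RPS replicate 4, 3 without CS replicate 2 or RPS replicate 1, and 4 without CS replicate 1. It also rose, to at most 9, as without CS replicate 3. Over the 8 fits that left out 1 array, 1.14% to 3.12% of all probes passed as lower.

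In the liver, the members were lower with RPS at 24 of 31 probes, against 51.0% of all probes, with a median difference of -0.25. There 1 probe passed as lower (MMP9, against 1.76% of all probes) and 2 as higher (both of LUM, against 1.8%). For 2 of the 31 probes, both of SPARC, the RPS arrays were all below the CS arrays, as for 2.2% of all probes. After adjustment 0 of the 31 probes, against 0.00229% of all probes, had a p under 0.05 in limma, 8 did without adjustment (7.59% of all probes), and the methods' t-test gave 7 (6.65% of all probes) and 0. These small counts also moved with single arrays: 3 probes passed as lower without CS replicate 2, CS replicate 3, RPS replicate 1, RPS replicate 2 or RPS replicate 4 and 2 without RPS replicate 3, while 3 passed as higher without RPS replicate 3 and 1 without any other array. Over the 8 hepatic fits that left out 1 array, 1.56% to 2.27% of all probes passed as lower. As higher, 787 of all probes passed with all hepatic arrays and at most 1040 with 1 left out, RPS replicate 4. Between the tissues the differences were much larger. With all 16 arrays normalized together, 23 of the 31 probes were higher in colon (adjusted p under 0.05 and fold change above 1.5, as for 23.4% of all probes; 22 without the pair of colonic arrays) and 3 were higher in liver, the single BGN probe and both FN1 probes (18.7% of all probes). The 8 colonic arrays were all above the 8 hepatic arrays at 19 of these probes, against 14.6% of all probes, and all below them at 3, against 12.2%.

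**Figure D1:**
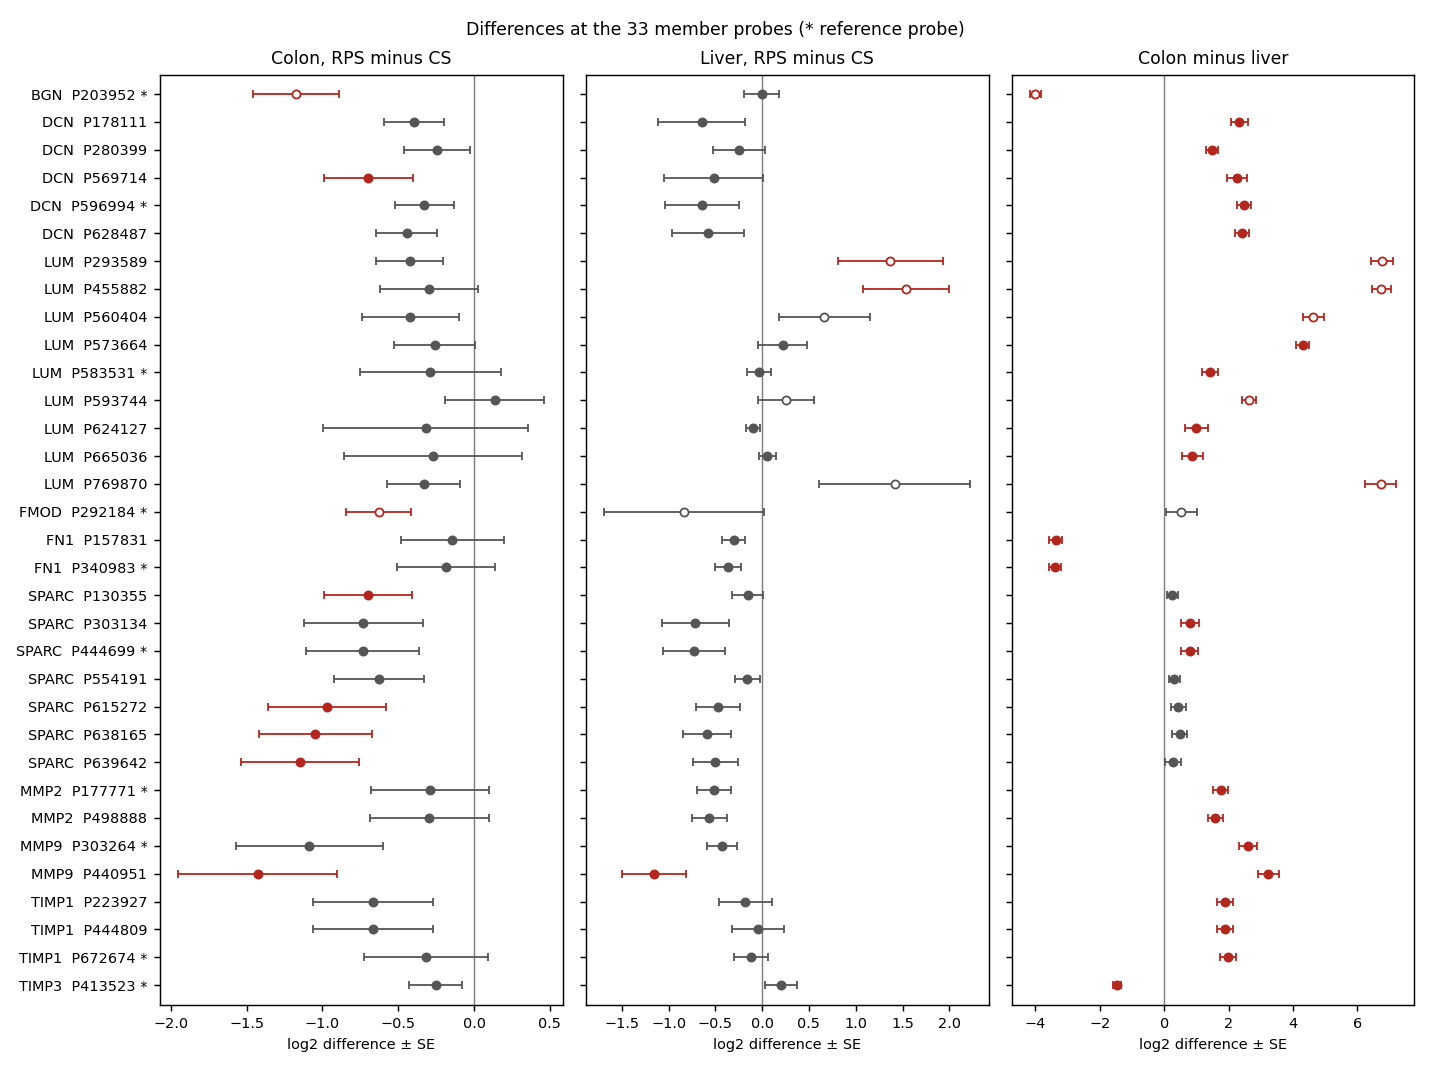
Log2 difference and standard error at the 31 member probes and the 2 added probes of FMOD and TIMP3, for RPS minus CS in colon (left) and liver (middle) and for colon minus liver (right). Probes that passed are red, a filled circle means well above background on every array compared, and an asterisk marks the reference probe. In colon every difference but that of 1 LUM probe lies below 0, and the largest differences between tissues are those of LUM, BGN and FN1.

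BGN (biglycan, a small leucine-rich proteoglycan that carries a pair of glycosaminoglycan chains) was measured by a single probe, which is shown because it carries the clearest separation of the diets.

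BGN A_72_P203952: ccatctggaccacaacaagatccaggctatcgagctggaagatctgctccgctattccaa

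In the colon, BGN had log2 signals of 3.73, 3.38, 3.26 and 3.03 in the CS pigs and 2.11, 2.77, 2.33 and 1.49 in the RPS pigs. All 4 RPS arrays were below all 4 CS arrays (p = 0.0286, exact two-sided permutation test, the smallest p that 4 against 4 allow). All CS arrays but no RPS array had a signal well above background, so that the level with RPS is only a bound. By the group means BGN was at least 1.10-fold lower with RPS, a bound without an error of its own. The measured difference was -1.17 ± 0.29 (standard error, n = 4 and 4, adjusted p = 0.560 in limma). It passed without each of the 8 arrays in turn, with differences from -1.37 to -0.95, but it did not pass after the normexp correction, which adds an offset to every signal (-0.12). The study listed this probe among the genes that changed on these arrays, which makes it no independent evidence. In liver, BGN was 6.25 ± 0.28 (SD, n = 4) with CS and 6.25 ± 0.28 (n = 4) with RPS, a difference of -0.01 ± 0.19. The measured diet effect in colon minus that in liver was -1.13 ± 0.33 (adjusted p = 0.698 in limma), a value that rests on colonic RPS signals below background. On the common scale, both liver groups lay above both colonic groups without overlap, and the difference colon minus liver was -4.01 ± 0.16, with a signal well above background in 4 of the 8 colon samples (adjusted p = 6.22e-11 in limma). Under the 25 alternative settings this tissue difference ranged from -4.10 to -1.08 and passed in each. Its standard error does not cover that dependence on the processing.

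DCN (decorin, which binds collagen fibrils and holds TGF-beta) was more strongly expressed in colon than in liver. Its reference probe A_72_P596994 had log2 signals of 13.64, 13.30, 13.23 and 13.94 in the colon of the CS pigs and 13.41, 13.37, 13.08 and 12.94 in that of the RPS pigs. The groups overlapped, and the difference was -0.33 ± 0.20 (adjusted p = 0.982 in limma). All 5 DCN probes had a difference below 0 in colon, from -0.70 to -0.24. The lowest was that of A_72_P569714, which passed, with 9.81, 9.20, 8.75 and 9.89 in the CS pigs and 9.07, 8.34, 8.90 and 8.56 in the RPS pigs. These groups also overlapped, at CS replicate 3, and the adjusted p was 0.919. This probe passed in only 2 of the 8 fits that left out 1 array, those without CS replicate 3 and without RPS replicate 1. In liver, the reference probe of DCN read 11.38, 11.08, 11.43 and 10.38 with CS and 10.81, 10.60, 9.37 and 10.93 with RPS. RPS replicate 3 was the lowest hepatic array at all 5 DCN probes, and the difference was -0.64 ± 0.39 at the reference probe (adjusted p = 0.771) and -0.29 without that array. DCN was 2.48 ± 0.23 higher in colon than in liver on the log2 scale (adjusted p = 3.87e-07), and the other 4 probes gave 1.48 to 2.42.

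LUM (lumican, a keratan sulfate proteoglycan that spaces collagen fibrils) stands next to DCN in the pig genome according to RefSeq (assembly Sscrofa11.1). Its 9 probes did not give 1 answer, and the sequences of 5 of them are shown because they differ in the feature that goes with this. Capitals mark a run of alternating a and c of 14 bases, which 4 of the LUM probes hold.

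LUM A_72_P573664: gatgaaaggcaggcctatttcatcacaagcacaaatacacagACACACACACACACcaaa
LUM A_72_P583531: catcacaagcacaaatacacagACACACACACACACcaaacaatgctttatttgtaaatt
LUM A_72_P624127: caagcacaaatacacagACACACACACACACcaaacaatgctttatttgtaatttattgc
LUM A_72_P665036: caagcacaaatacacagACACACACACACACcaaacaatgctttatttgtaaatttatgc
LUM A_72_P769870: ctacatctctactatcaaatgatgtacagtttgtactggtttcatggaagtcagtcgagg

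The 4 probes with the run were well above background on all 8 hepatic arrays. They overlap one another, with shared stretches of 35 to 55 bases, and count as 1 site and not as 4 measurements. The run cannot be told apart there from the other bases that these probes share. The other 5 LUM probes were well above background on 0 to 3 of the 8 hepatic arrays, although in colon all 9 were so on the 8 arrays. Of all probes on the array, 40 (0.0917%) hold a run of alternating A and C (ACACAC, on the strand printed) of at least 12 bases. Of these 40, 85.0% were well above background on all hepatic arrays, against 57.3% of the probes without it. The shares on all colonic arrays were 82.5% and 60.8%. The 40 include the 4 LUM probes in which the run was first seen, so that these shares are not independent of them. The difference between colon and liver varied between the probes and did not separate those with the run from the others. With the run it was 0.88, 1.00 and 1.42 on the log2 scale at A_72_P665036, A_72_P624127 and A_72_P583531, and 4.30 at A_72_P573664, in which the run lies close to the 3′ end. Without the run it was 6.72 at A_72_P769870, 6.76 at A_72_P293589, 6.75 at A_72_P455882, 4.63 at A_72_P560404 and 2.63 at A_72_P593744. The last was not well above background on any hepatic array, and LUM was at least 4.45-fold higher in colon there. Whether the run binds other transcripts was not tested.

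**Figure D2:**
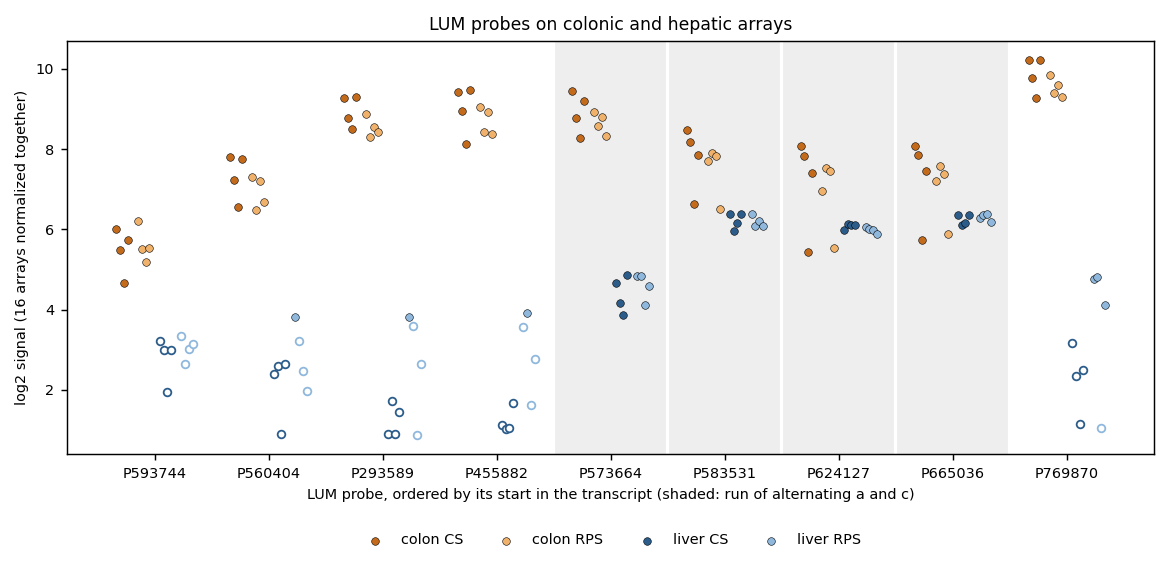
Log2 signal (16 arrays normalized together) of the 9 LUM probes, ordered by their start in the transcript, with 1 point per array. Open points were not well above background, and shading marks the 4 probes that hold the run of alternating a and c. In liver the shaded probes are all above background, whereas the other probes mostly are not.

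In the colon, the LUM reference probe A_72_P583531, which holds the run, read 8.67, 8.38, 6.87 and 8.07 in the CS pigs and 7.92, 8.11, 8.03 and 6.76 in the RPS pigs. CS replicate 3 and RPS replicate 4 were the lowest arrays, each in another group, and the difference was -0.29 ± 0.47 (adjusted p = 0.992 in limma). Without RPS replicate 4 it was 0.026. A_72_P769870, named here after its values were seen because it is free of the run, read 10.40, 9.94, 9.47 and 10.40 with CS and 10.03, 9.58, 9.78 and 9.49 with RPS, a difference of -0.33 ± 0.24 (adjusted p = 0.982). No LUM probe passed in colon, and 8 of 9 had a difference below 0.

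In liver, the difference of LUM was above 0 at all 5 probes without the run. A_72_P455882 read 1.12, 1.03, 1.06 and 1.42 with CS and 3.29, 3.64, 1.39 and 2.46 with RPS, a difference of 1.54 ± 0.46 (adjusted p = 0.506 in limma), and A_72_P293589 read 0.92, 1.47, 0.91 and 1.29 with CS and 3.53, 3.30, 0.89 and 2.35 with RPS, a difference of 1.37 ± 0.56 (adjusted p = 0.631). Both passed, but each was well above background on only 1 RPS array and on no CS array. These log2 differences are thus mostly between signals not well above background, do not measure the size of a change, and no fold is given. They share a run of 36 bases and are not separate evidence. A_72_P769870 was well above background on 3 RPS arrays and on no CS array, but it did not pass (adjusted p = 0.751). By the group means it was at least 1.35-fold higher with RPS. The groups overlapped, since the lowest RPS array read 1.07 and the lowest CS array 1.13. RPS replicate 3 was the only RPS array that did not lie above all CS arrays at these 3 probes. Without it all 3 passed, with differences of 1.98 at A_72_P455882, 1.92 at A_72_P293589 and 2.23 at A_72_P769870, which rest on the same dim CS arrays. At A_72_P583531 the hepatic difference was -0.04 ± 0.13.

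FMOD (fibromodulin, which also binds collagen) had a low signal. Its added probe A_72_P292184 read 3.97, 3.72, 3.06 and 3.86 in the colon of the CS pigs and 3.07, 2.81, 3.17 and 3.04 in that of the RPS pigs. The CS arrays were all well above background and the RPS arrays were not, although CS replicate 3 read below RPS replicates 1 and 3. By the group means FMOD was at least 1.35-fold lower with RPS, a bound without an error of its own. The measured difference was -0.63 ± 0.21 (adjusted p = 0.810 in limma). It passed, and the groups overlapped at CS replicate 3. It failed to pass when CS replicate 1 (-0.52), CS replicate 4 (-0.56) or RPS replicate 2 (-0.56) was left out. In liver only CS replicate 2 gave a signal well above background, and no comparison of the diets is given. Colon and liver differed by 0.53 ± 0.48 (adjusted p = 0.379 in limma).

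FN1 (fibronectin) had the highest difference in favour of liver after BGN. Its 2 probes, shown because they are nearly 1 probe, share the 54 bases in capitals and count as 1 measurement.

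FN1 A_72_P157831: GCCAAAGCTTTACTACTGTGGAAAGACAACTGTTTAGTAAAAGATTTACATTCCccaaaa
FN1 A_72_P340983: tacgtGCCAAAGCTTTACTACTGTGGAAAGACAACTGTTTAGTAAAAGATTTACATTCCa

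At the reference probe A_72_P340983, the difference colon minus liver was -3.40 ± 0.19 on the log2 scale, or 10.6-fold (adjusted p = 2.02e-09), and the tissues did not overlap. In liver, FN1 read 17.25, 16.95, 17.04 and 16.99 with CS and 16.74, 16.69, 16.37 and 16.97 with RPS. Only RPS replicate 4 reached the CS arrays, and the difference was -0.36 ± 0.14, which is a fold change of 1.29 and did not pass (adjusted p = 0.607 in limma; p = 0.0571, exact two-sided permutation test). In colon, FN1 read 13.93, 13.51, 12.89 and 13.90 with CS and 13.57, 12.93, 13.97 and 13.01 with RPS. The groups overlapped throughout and the difference was -0.19 ± 0.32 (adjusted p = 0.992).

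SPARC (osteonectin, a collagen-binding glycoprotein that is secreted where matrix is remodelled) had 4 of the 7 colonic probes that passed. Their sequences are shown because they say how many measurements these are. A_72_P615272 and A_72_P638165 share the 37 bases in capitals, A_72_P639642 lies elsewhere in the transcript, and A_72_P130355 has the same sequence as A_72_P554191, which did not pass.

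SPARC A_72_P615272: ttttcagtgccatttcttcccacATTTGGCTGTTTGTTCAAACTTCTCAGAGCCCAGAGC
SPARC A_72_P638165: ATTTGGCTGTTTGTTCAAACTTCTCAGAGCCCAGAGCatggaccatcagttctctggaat
SPARC A_72_P639642: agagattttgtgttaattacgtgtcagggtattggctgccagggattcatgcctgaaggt
SPARC A_72_P130355: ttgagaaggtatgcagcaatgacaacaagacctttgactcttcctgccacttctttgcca

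In the colon, A_72_P639642 read 8.72, 9.47, 8.77 and 9.86 in the CS pigs and 7.30, 8.30, 8.79 and 7.84 in the RPS pigs, a difference of -1.15 ± 0.39 or 2.22-fold (adjusted p = 0.818 in limma). SPARC at A_72_P638165 read 9.81, 10.32, 9.98 and 10.99 with CS and 8.68, 9.54, 9.94 and 8.74 with RPS, a difference of -1.05 ± 0.37 (adjusted p = 0.863). RPS replicates 1 and 4 were the lowest arrays at both, and RPS replicate 3 reached the CS range. A_72_P615272 read 10.09, 10.37, 10.23 and 11.25 with CS and 8.99, 9.82, 10.31 and 8.95 with RPS, a difference of -0.97 ± 0.39 (adjusted p = 0.904). SPARC at A_72_P130355 read 7.92, 7.57, 7.85 and 8.77 with CS and 6.96, 7.54, 7.67 and 7.15 with RPS, a difference of -0.70 ± 0.29 (adjusted p = 0.911). The probe of the same sequence, A_72_P554191, gave -0.63 ± 0.30, so that a single sequence lay on both sides of the threshold. The reference probe A_72_P444699 did not pass either, with 12.48, 12.84, 12.65 and 13.44 with CS, 11.26, 12.57, 12.76 and 11.88 with RPS and a difference of -0.73 ± 0.37 (adjusted p = 0.973). All 7 SPARC probes were below 0. Of the 4 that passed, none did so without CS replicate 4 or without RPS replicate 4, and without CS replicate 2 only A_72_P130355 did. A_72_P638165 and A_72_P639642 are among the changed genes listed by the study on these arrays and are no independent evidence.

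In liver, SPARC at the reference probe read 11.87, 12.09, 11.72 and 11.93 with CS and 11.38, 11.47, 10.13 and 11.71 with RPS. The RPS arrays were all below the CS arrays (p = 0.0286, exact two-sided permutation test) although RPS replicate 4 and CS replicate 3 nearly met, and RPS replicate 3 was far below the others. The difference was -0.73 ± 0.33 and did not pass (adjusted p = 0.681 in limma), and without RPS replicate 3 it was -0.38. A_72_P303134, which shares 53 bases with the reference probe, also did not overlap. The difference between the diet effects in the 2 tissues was -0.09 ± 0.53 at the reference probe. SPARC differed little between the tissues, with 0.79 ± 0.26 more in colon at the reference probe (adjusted p = 0.0210) and no pass at 5 of the 7 probes. Scaling to the 75th percentile in place of quantile normalization gave 0.55, with an adjusted p of 0.0617 in limma.

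**Figure D3:**
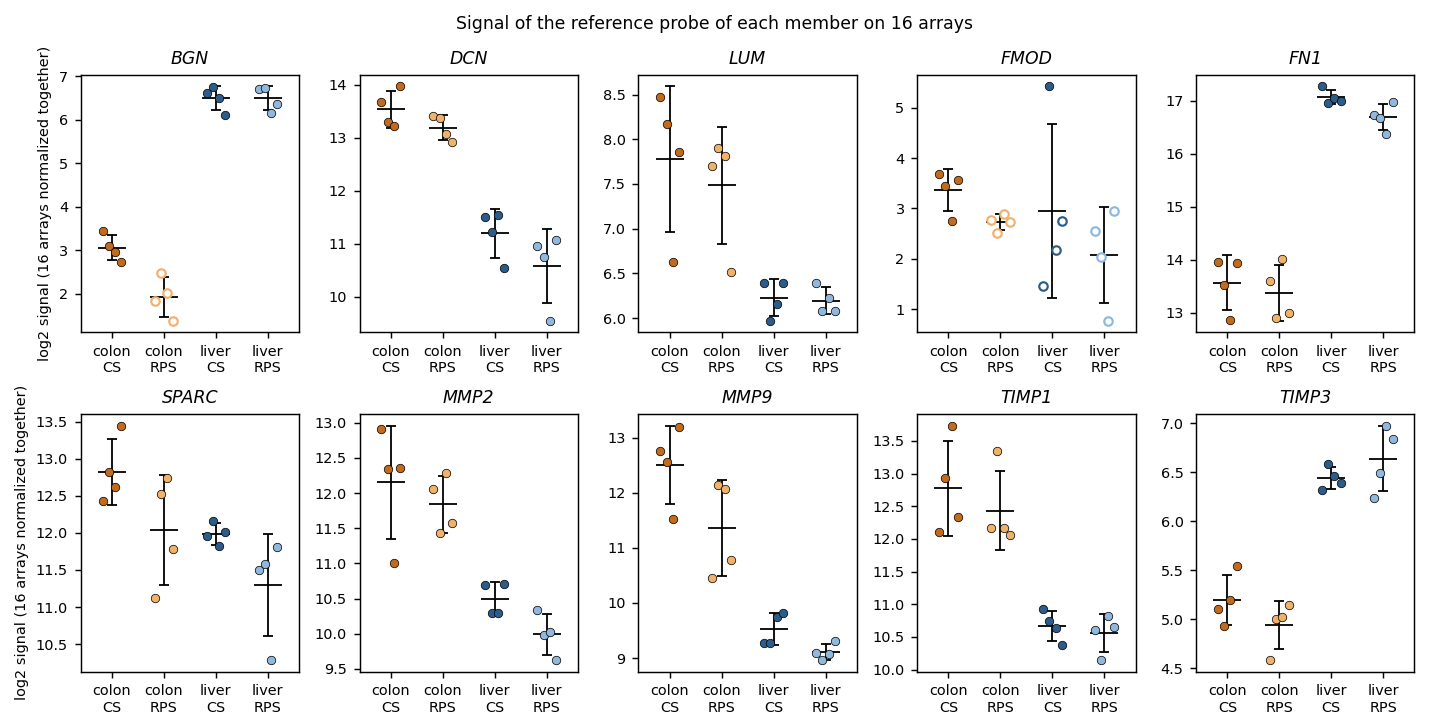
Log2 signal (16 arrays normalized together) of the reference probe of each member, with 1 point per array, open where the probe was not well above background, and the mean ± SD (n = 4) of each group. BGN, FN1 and TIMP3 lie higher in liver, and DCN, LUM, MMP2, MMP9 and TIMP1 lie higher in colon without overlap of the tissues. The vertical scales differ between genes, and levels of different probes are not comparable.

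MMP2 (gelatinase A, made mainly by fibroblasts and stellate cells) differed between the diets by less than the spread in colon. Its reference probe A_72_P177771 read 12.93, 12.41, 11.15 and 12.41 with CS and 12.13, 11.56, 12.36 and 11.69 with RPS. CS replicate 3 was the lowest of the 8 arrays. The difference was -0.29 ± 0.39 (adjusted p = 0.988 in limma) with all arrays and -0.65 without CS replicate 3, when both MMP2 probes passed. Without CS replicate 1 it was -0.055. In liver, MMP2 read 10.54, 10.13, 10.14 and 10.56 with CS and 10.18, 9.82, 9.86 and 9.45 with RPS, a difference of -0.52 ± 0.18 (adjusted p = 0.565). The fold change of 1.43 was below the threshold, and RPS replicate 1 lay within the CS range. MMP2 was 1.75 ± 0.23 higher in colon than in liver (adjusted p = 1.90e-05).

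MMP9 (gelatinase B, made mainly by neutrophils and macrophages) had 1 of its 2 probes among those that passed in colon. The probes lie at different places of the transcript and are shown because 1 of them passed in both tissues and the other in neither.

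MMP9 A_72_P440951: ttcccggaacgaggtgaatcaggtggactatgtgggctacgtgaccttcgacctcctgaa
MMP9 A_72_P303264: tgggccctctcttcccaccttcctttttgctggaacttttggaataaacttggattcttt

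In the colon, A_72_P440951 read 10.51, 10.33, 9.38 and 11.01 with CS and 8.04, 9.76, 9.57 and 8.15 with RPS, a difference of -1.43 ± 0.52 or 2.69-fold (adjusted p = 0.880 in limma). The reference probe A_72_P303264 of MMP9 read 12.79, 12.60, 11.64 and 13.21 with CS and 10.61, 12.21, 12.15 and 10.93 with RPS, a difference of -1.09 ± 0.49 (adjusted p = 0.931). At both probes RPS replicates 1 and 4 were far below the other arrays, and the groups overlapped only at CS replicate 3, which lay below RPS replicates 2 and 3. Without CS replicate 3 and RPS replicate 2, both MMP9 probes passed, with differences of -2.05 ± 0.47 at A_72_P440951 and -1.66 ± 0.44 at A_72_P303264 (n = 3 and 3, adjusted p = 0.353 and 0.399). A_72_P440951 passed in 3 of the 8 fits that left out 1 array, those without CS replicate 3, RPS replicate 2 and RPS replicate 3. The study listed A_72_P440951 among the changed genes.

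In liver, MMP9 at A_72_P440951 read 5.91, 6.24, 7.11 and 6.77 with CS and 5.09, 5.10, 5.07 and 6.15 with RPS. RPS replicate 4 was the only RPS array within the CS range, and the difference was -1.16 ± 0.34 or 2.23-fold (adjusted p = 0.506 in limma). It passed without each of the 8 arrays in turn, with differences from -1.42 to -0.96. The reference probe of MMP9 gave -0.43 ± 0.16 in liver, a fold change of 1.35 that did not pass (adjusted p = 0.600). The difference between the diet effects in colon and liver was -0.73 ± 0.56 at the reference probe and -0.32 ± 0.65 at A_72_P440951. Neither passed (adjusted p = 0.999 in limma for each). MMP9 was 2.62 ± 0.28 higher in colon than in liver (adjusted p = 1.95e-06).

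TIMP1 (a soluble inhibitor of most metalloproteinases, MMP9 among them) did not pass at any of its 3 probes in either tissue. In the colon, its reference probe A_72_P672674 read 12.18, 12.96, 13.71 and 12.40 with CS and 12.24, 13.35, 12.24 and 12.14 with RPS. CS replicate 3 and RPS replicate 2, the arrays with low epithelial signal, were the highest of their groups. The difference was -0.32 ± 0.41 (adjusted p = 0.986 in limma), -0.60 when RPS replicate 2 was left out and -0.020 when CS replicate 3 was. The other 2 probes share a run of 56 bases and gave -0.67 ± 0.39 and -0.67 ± 0.40. In liver, TIMP1 was 10.52 ± 0.24 (SD, n = 4) with CS and 10.40 ± 0.29 (n = 4) with RPS, a difference of -0.12 ± 0.18. It was 1.99 ± 0.24 higher in colon than in liver (adjusted p = 7.96e-06).

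TIMP3 (an inhibitor that is held in the matrix by its proteoglycans) was the only member whose reference probe was higher with RPS in liver, and it did not pass in either tissue. Its added probe A_72_P413523 read 5.38, 5.20, 5.47 and 5.80 with CS and 4.86, 5.27, 5.30 and 5.41 with RPS in colon, a difference of -0.25 ± 0.17 (adjusted p = 0.982 in limma). In liver it read 6.07, 6.34, 6.22 and 6.14 with CS and 5.99, 6.25, 6.74 and 6.60 with RPS, a difference of 0.20 ± 0.17 (adjusted p = 0.850). The groups overlapped in both. TIMP3 was 1.47 ± 0.13 lower in colon than in liver (adjusted p = 2.14e-07).

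Set side by side in 1 fit of all arrays, the diet effects in colon and liver differed at 3 of the 31 probes, BGN and 2 of LUM, all with a lower effect in colon (1.72% of all probes passed in this direction). Each of these rests on a group with no array well above background, colonic RPS for BGN and hepatic CS for the overlapping LUM probes, and none passed with normexp. Without CS replicate 3 and RPS replicate 2 of the colon, 5 probes passed as lower. Over all probes, 748 passed as lower in the main fit. Under the alternatives this count ranged from 156 with normexp to 1373 without RPS replicate 2 of the colon. No member probe passed in the other direction, against 2.04% of all probes. On the common scale, the liver groups came first for BGN, FN1 and TIMP3 and the colonic groups for DCN, LUM, MMP2, MMP9, SPARC and TIMP1. For these 9 genes the CS and RPS groups of a tissue were neighbours in this order. Neighbouring diets overlapped in every case but BGN in colon and SPARC in liver, and the tissues overlapped only for SPARC.

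The members did not mark the same arrays as lowest. In colon, RPS replicate 4 was the lowest array for 4 of the 10 reference probes, RPS replicate 1 for 3, CS replicate 3 for 2 and RPS replicate 2 for 1. The median deviation of the 10 reference probes from the mean of the 8 colonic arrays was 0.55, 0.34, -0.21 and 0.45 on the CS arrays and -0.34, 0.01, 0.05 and -0.48 on the RPS arrays. Thus CS replicate 3 lay below 2 of the RPS arrays. In liver the same measure was 0.25, 0.11, 0.04 and 0.14 with CS and -0.02, -0.17, -0.29 and 0.07 with RPS, and RPS replicate 3 was the lowest array for 4 members.

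Other genes of the matrix were read at the brightest probe of each gene, from lists that together held 64 measured genes. In colon 3 of the 64 passed as lower and 1 as higher, against 1.32% and 1.62% of all probes. A difference below 0 was found for 44, against 47.7% of all probes, with a median of -0.22. Without CS replicate 3 and RPS replicate 2, 6 passed as lower and 2 as higher, and 46 were below 0. Among other metalloproteinases and inhibitors (16 of 24 listed genes measured), TIMP2, another soluble inhibitor, was lower with RPS (-0.93 ± 0.27, adjusted p = 0.718 in limma) and MMP7, matrilysin of epithelia, was higher (1.09 ± 0.26, adjusted p = 0.560). MMP7 was well above background on 4 RPS arrays and 1 CS array, and the study listed its probe among the changed genes. Of 18 other matrix glycoproteins, only FBN1, the fibrillin of microfibrils, passed (-0.79 ± 0.31, adjusted p = 0.900). Of 13 genes of crosslinking and of the plasminogen system, LOXL4, a lysyl oxidase, passed as lower (adjusted p = 0.891), but it was well above background on only 2 CS arrays and no RPS array, so that no difference is given. None of 8 other proteoglycans and none of 9 matrix receptors passed in colon in limma, and none had an unadjusted p under 0.05. In liver 1 of the 64 genes passed, the proteoglycan ASPN (asporin), which was lower with RPS (-0.73 ± 0.25, adjusted p = 0.563). Of all hepatic probes, 1.76% passed as lower. The hepatic difference was below 0 for 47 of the 64, against 51.0% of all probes, with a median of -0.19. Between the tissues, 25 of the 64 were higher in colon and 19 higher in liver, against 23.4% and 18.7% of all probes.

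Some markers of several cell types were lower with RPS in colon and others of the same lists were not. Their part in the results was not tested. Of 7 macrophage markers, C1QA, C1QB and C1QC, which encode the chains of complement C1q, passed as lower with RPS (-0.88 ± 0.30, -1.27 ± 0.32 and -1.30 ± 0.36, adjusted p = 0.819, 0.594 and 0.657 in limma). The others did not pass, with -0.42 ± 0.29 for AIF1, -0.30 ± 0.23 for CD163, -0.06 ± 0.39 for MRC1 and 0.0013 ± 0.36 for CD14. The macrophage markers summed to 44704 to 50302 on the CS arrays and 16030 to 34550 on the RPS arrays, without overlap. This sum of linear signals weighs the brightest genes most, which were C1QB and C1QA (mean log2 signals of 14.09 and 13.63 with CS). Of 4 fibroblast markers, COL1A2, a chain of type I collagen, and PDGFRB, a receptor of mesenchymal cells, passed as lower (-0.72 ± 0.23 and -0.66 ± 0.20, adjusted p = 0.803 and 0.747 in limma). VIM (-0.38 ± 0.28) and THY1, which lay above 0 (0.20 ± 0.84), did not pass. The fibroblast sums overlapped, 12932 to 19100 with CS against 9163 to 19517 with RPS. None of 4 smooth muscle markers passed, though all were below 0 and 2 had an unadjusted p under 0.05 in limma, and they summed to 34394 to 37641 with CS and 23057 to 31011 with RPS, without overlap. None of the endothelial, epithelial, neutrophil, stellate, hepatocyte or B and plasma cell markers passed in colon. Without CS replicate 3 and RPS replicate 2, 4 macrophage, 2 fibroblast and 2 B and plasma cell markers passed as lower, and 1 neutrophil and 1 hepatocyte marker as higher. In liver no marker of fibroblasts, smooth muscle, macrophages or stellate cells passed, and the sums overlapped between the diets for the first 3 of these lists. The sums did not overlap for stellate cells (3 genes, 4155 to 4248 with CS and 3612 to 3935 with RPS) or for endothelium (6 genes, 11109 to 11418 with CS and 8735 to 10593 with RPS), where no gene passed either.

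**Figure D4:**
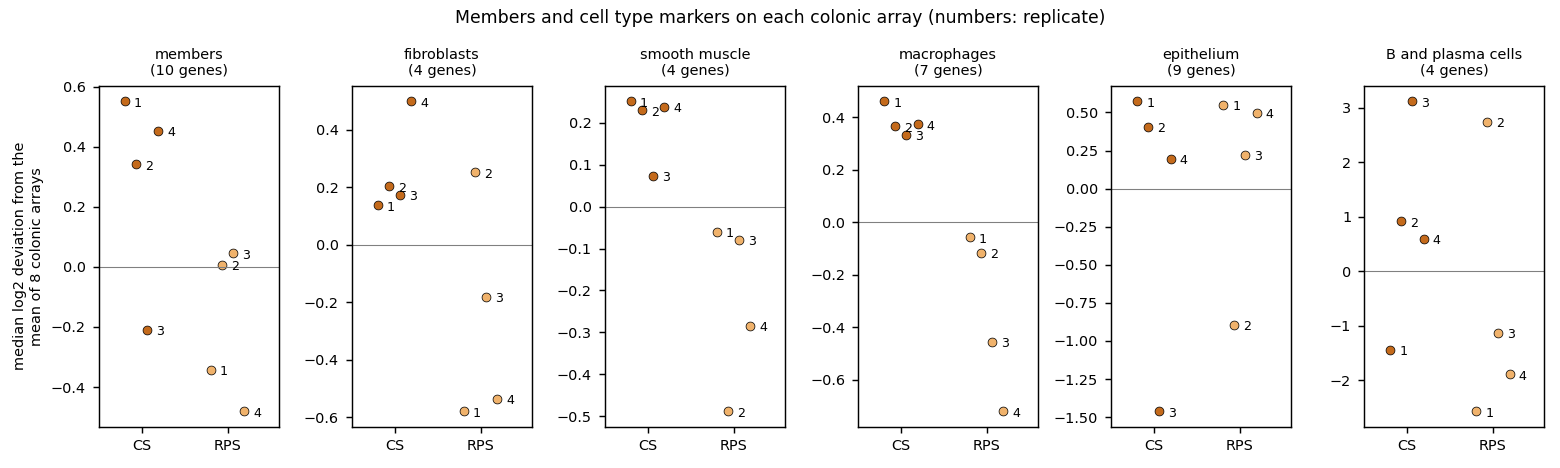
Median log2 deviation from the mean of the 8 colonic arrays, over the 10 members and over the markers of 5 cell types, with 1 point per array and its replicate number. Smooth muscle and macrophage markers are lower on all RPS arrays than on all CS arrays, whereas CS replicate 3 and RPS replicate 2 stand apart for epithelium and for B and plasma cells.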

How the data were processed

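The deposited scanner files held spot intensity values of one-colour Agilent porcine arrays (Feature Extraction 10.7 per the file headers), background-subtracted and detrended but not normalized between arrays. The authors also deposited log2 values, quantile normalized over the 16 arrays, which served as an alternative. Here the processed signal was set to missing at outlier spots and put on the log2 scale. Quantile normalization took in the 8 arrays of 1 tissue for the diet comparisons, and all 16 arrays for colon against liver and for the difference between diet effects. Differences were tested with limma 3.58.1 in R 4.3.3 over all 43603 non-control probes, with Benjamini-Hochberg adjustment. For diet effects the thresholds were a fold change above 1.5 and p under 0.05 before adjustment, and for tissue differences the same fold and an adjusted p under 0.05. The fitting steps were tested on simulated data. Figures were drawn with matplotlib 3.10.9, pandas 2.3.3 and numpy 2.4.6.

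Values per array are given at each member's reference probe and at any member probe that passed in a diet comparison. Other genes were read at their brightest probe, and those that passed in colon are named, up to 4 per list. ASPN and the results on A_72_P769870 and on the run of alternating a and c were singled out after the values were seen. The members and lists were chosen with earlier results of these data known. A fold is a bound ("at least") where a probe was not well above background on any array of a group. It sets the brighter group's mean against the higher of the dim probe's signal and the lowest signal well above background on each array. The bound carries no sampling error, and groups that overlap can have one. In all, 14045 probes could be named from the files and RefSeq names, for 6798 genes. No spot was saturated, and the number of arrays limits the precision. The alternatives were 75th percentile scaling, normexp background correction (offset 50), outlier spots kept, the deposited log2 values, a filter on dim probes, an intensity trend, the replicate number as a block, quantile normalization over 16 arrays, the methods' t-test, 16 arrays in 1 fit, a fold above 2, and each array left out in turn. Leaving out the pair of colonic arrays with low epithelial sums was added after the data were seen. The p-values measure the spread between the pigs within 1 slide per group.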

Additional observations from a re-analysis of the deposited data

Results flagged for a closer look

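LUM at its reference probe, which holds the run of alternating a and c, had a log2 signal of 6.76 on the colonic array of RPS replicate 4. The other 3 RPS arrays lay between 7.92 and 8.11. At A_72_P769870, which is free of the run, the colonic RPS arrays lay between 9.49 and 10.03. TIMP1 at its reference probe had 13.35 on the colonic array of RPS replicate 2, against 12.14 to 12.24 on the other 3. In both cases the gap to the nearest array, divided by the range of the group, was above the critical value of Dixon's test for 4 samples. Of the 40 groups examined these were 2, and chance gives such a gap in about 1 in 20 groups.

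For BGN the diet effect in colon was lower than that in liver by an interaction of -1.13 ± 0.33 on the log2 scale (unadjusted p = 0.00405, adjusted p = 0.698 in limma). The colonic RPS signals were not well above background. All 4 colonic RPS arrays were below the 4 colonic CS arrays, while the hepatic arrays of the diets overlapped.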

How the results depend on the processing

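The counts of member probes between the tissues changed by less than 1.5 times under every alternative run. The count lower in colon (7) was 3 with normexp, 2 with the replicate block, 4 with the methods' t-test and 4 with a fold above 2, and 1 to 9 with 1 array left out. In liver, the count higher (2) was 0 with normexp, 0 among probes above background and 1 with the methods' t-test, and the count lower (1) was 3 among probes above background and 3 with the replicate block. Each was 1 to 3 with 1 array left out. The 3 probes with a lower effect in colon than in liver became 0 with normexp. The count was 5 without the pair of colonic arrays with low epithelial sums, when the value of MMP2 was -0.060. Over all probes the count was 748 in the main fit and ranged from 156 to 1373, the lowest with normexp.

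With normexp the hepatic difference was 0.019 for BGN and 0.00732 for LUM, and with 75th percentile scaling the difference between diet effects was 0.020 for SPARC. Leaving out 1 array gave -0.67 to 0.026 for LUM in colon and -0.14 to 0.11 for BGN, -0.12 to 0.020 for LUM and -0.22 to 0.020 for TIMP1 in liver. For the difference between diet effects it gave -0.074 to 0.49 for DCN, -0.59 to 0.75 for FMOD, -0.057 to 0.33 for FN1, -0.65 to 0.062 for LUM, -0.19 to 0.44 for MMP2, -0.42 to 0.22 for SPARC and -0.53 to 0.095 for TIMP1. The cause was not tested.

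FMOD in colon did not pass with normexp, with 16 arrays in 1 fit, with a fold above 2 or in 3 of the 8 fits without 1 array. MMP9 passed in colon at the reference probe with 75th percentile scaling, among probes above background, with 16 arrays in 1 fit and without the pair of arrays with low epithelial sums. SPARC passed in liver with normexp, among probes above background and with the replicate block, and did not pass between tissues with 75th percentile scaling, the replicate block (adjusted p = 0.0587 in limma) or a fold above 2. Over all probes, the colonic counts ranged from 87 to 1358 higher and from 93 to 1359 lower, and the hepatic counts from 117 to 1040 higher and from 104 to 989 lower, the lowest with normexp in each case.

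The replicate numbers were not treated as pairs. The deviations of colonic CS and RPS arrays with the same number correlated at 0.55, -0.40, -0.51 and 0.10, those of hepatic arrays at 0.07, 0.11, -0.16 and -0.05. Between colon and liver they correlated at 0.18, 0.33, 0.16 and 0.24 with CS and at -0.08, -0.07, 0.01 and 0.07 with RPS, so that arrays of 1 pig, if any, were treated as independent between the tissues. The level of BGN with RPS in colon, of FMOD, and of LUM in liver at the probes without the run was limited by signal over background.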
